A study of Mus musculus with 12 samples.

Results

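Iron and heme handling genes were followed in mouse brains taken at 14 d post-stroke. The set holds 10 genes, namely *Hmox1*, *Blvrb*, *Fth1*, *Ftl1*, *Slc40a1*, *Cp*, *Trf*, *Tfrc*, *Slc11a1* and *Slc11a2*, taken by symbol from the 49315 genes of the count table, and all 10 were among the 20290 genes with enough counts to be tested. Bulk RNA-sequencing covered 12 mice, 6 with WT and 6 with *Tet2*-KO cells. All were male Pep Boy recipients that express CD45.1 and have intact *Tet2*, aged 8 to 12 weeks at head-shielded irradiation. Of their transplanted bone marrow (BM), 90% came from CD45.1 donors with intact *Tet2* and 10% from CD45.2 donors, which were *Tet2*-/- in the *Tet2*-KO group and *Tet2*+/+ in the WT group. Transient occlusion of the right middle cerebral artery for 30 min followed 8 to 10 weeks later. The treatment entry of the labels reads control HSC for all 12 mice, and the groups rest on the titles and genotype entries. *Tet2* itself, intact in the recipient brain and in most of the transplanted cells, averaged 132 ± 7.60 (SD, n = 6) in WT and 131 ± 7.80 in *Tet2*-KO mice, in counts scaled to equal library size (CPM), so its level does not check the labels.

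Heme oxygenase opens the heme ring and frees its iron, and biliverdin reductases turn the biliverdin that is left into bilirubin. Iron that a cell keeps is held in ferritin, a shell of heavy and light chains, iron that it exports leaves through ferroportin, and iron that it takes up arrives on transferrin, which binds the transferrin receptor. In injured brain these steps are known from microglia and infiltrating macrophages that clear red cells, myelin and dead cells, and also from oligodendrocytes, which make transferrin. Several of the messenger RNAs carry an iron-responsive element, a hairpin to which iron regulatory proteins bind when iron is scarce. In a 5′ UTR the bound hairpin holds back translation, and in a 3′ UTR it protects the transcript from decay.

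The hairpin was searched in the mature transcripts of GENCODE M21 (GRCm38, the build of the files), on the transcript strand, as the 6-base loop CAGTGN with a last base other than G, 5 paired bases on each side with G-T pairs allowed, and an unpaired C ahead of the first pair. Of the 10 genes 4 held this exact form, *Fth1*, *Ftl1* and *Slc40a1* in the 5′ UTR and *Tfrc* in the 3′ UTR. The search misses a hairpin with an extra bulge or a mismatch. The other genes, *Slc11a2* among them, may therefore still carry an iron-responsive element, and *Tfrc* may carry more. These sites are shown because, among these 4 genes, their place in the transcript divides the storage and export genes from the uptake receptor. Of 19213 protein-coding genes with a count, 0.115% held the hairpin in a 5′ UTR and 0.494% in a 3′ UTR. A match is a description of the letters and not evidence of binding. Each site is given from 5′ to 3′ with the loop in capitals.
*Fth1*, chr19:9982733-9982759, plus strand: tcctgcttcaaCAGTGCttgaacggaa
*Ftl1*, chr7:45459780-45459806, minus strand: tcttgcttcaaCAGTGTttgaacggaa
*Slc40a1*, chr1:45925466-45925492, minus strand: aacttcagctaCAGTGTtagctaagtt
*Tfrc*, chr16:32631220-32631246, plus strand: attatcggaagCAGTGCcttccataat
*Tfrc*, chr16:32631599-32631625, plus strand: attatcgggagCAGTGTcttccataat
*Tfrc*, chr16:32631664-32631690, plus strand: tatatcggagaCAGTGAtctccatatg
*Tfrc*, chr16:32631711-32631737, plus strand: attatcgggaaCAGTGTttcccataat

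The libraries held 12000261 to 15340787 counts in the WT group and 12625047 to 21049763 in the *Tet2*-KO group, and the 10 genes took up 0.220% to 0.342% of the counts of WT mice and 0.165% to 0.228% of those of *Tet2*-KO mice. Levels are CPM after scaling by TMM, a factor that corrects for differences in library makeup. Fold changes and p-values are from the quasi-likelihood test of edgeR, adjusted by the Benjamini-Hochberg method over all tested genes, with 0.05 as the threshold. In a pair of libraries the members were often the highest of their group. *Tet2*-KO replicate 5 was the highest mouse of its group in 5 of the 10 genes and lay below every WT mouse in only 2, and WT replicate 2 was the highest of its group in 9. Each gene is therefore also given without either mouse.

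Of the 10 genes, 9 were lower in the *Tet2*-KO group and 1, *Tfrc*, was higher. All 9 lower genes had an unadjusted p below 0.05, a level that 12.2% of all tested genes reached in that direction and 10.8% in the other. With a mouse left out this count was 6 to 9. It was 6 without WT replicate 2, where 1622 of 20475 tested genes were lower at that level. None of the 10 passed the adjusted threshold in edgeR, which 0.0246% of all tested genes passed. The DESeq2 Wald test, run on all genes, called 5 of the 10 lower at an adjusted p below 0.05 (*Blvrb*, *Cp*, *Ftl1*, *Hmox1* and *Slc11a1*), against 3.71% of all genes with an adjusted p. Of these, *Cp* and *Slc11a1* were near the threshold, both at a DESeq2 adjusted p of 0.0487. They were not called when the filter of DESeq2 was tuned to 0.05. Limma-voom with quality weights, which give libraries that vary more a lower weight, called the same 5 and *Slc40a1*, against 7.01%. Without *Tet2*-KO replicate 5, edgeR called those 6 genes, against 7.3% of all tested genes. That mouse was singled out by its values in these same genes, so this fit is not independent support. With each of the other 11 mice left out in turn, edgeR called none of the 10. The median log2 fold change of the 10 genes was -0.47, beside 0.01 for all tested genes, and it was -0.56 when *Tet2*-KO replicate 5 was left out and -0.38 when WT replicate 2 was. In 1 of the 10 genes, *Blvrb*, no *Tet2*-KO mouse reached the lowest WT mouse, which held for 0.641% of all tested genes, and none was higher in every *Tet2*-KO mouse than in every WT mouse, which held for 0.453%.

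**Figure D1:**
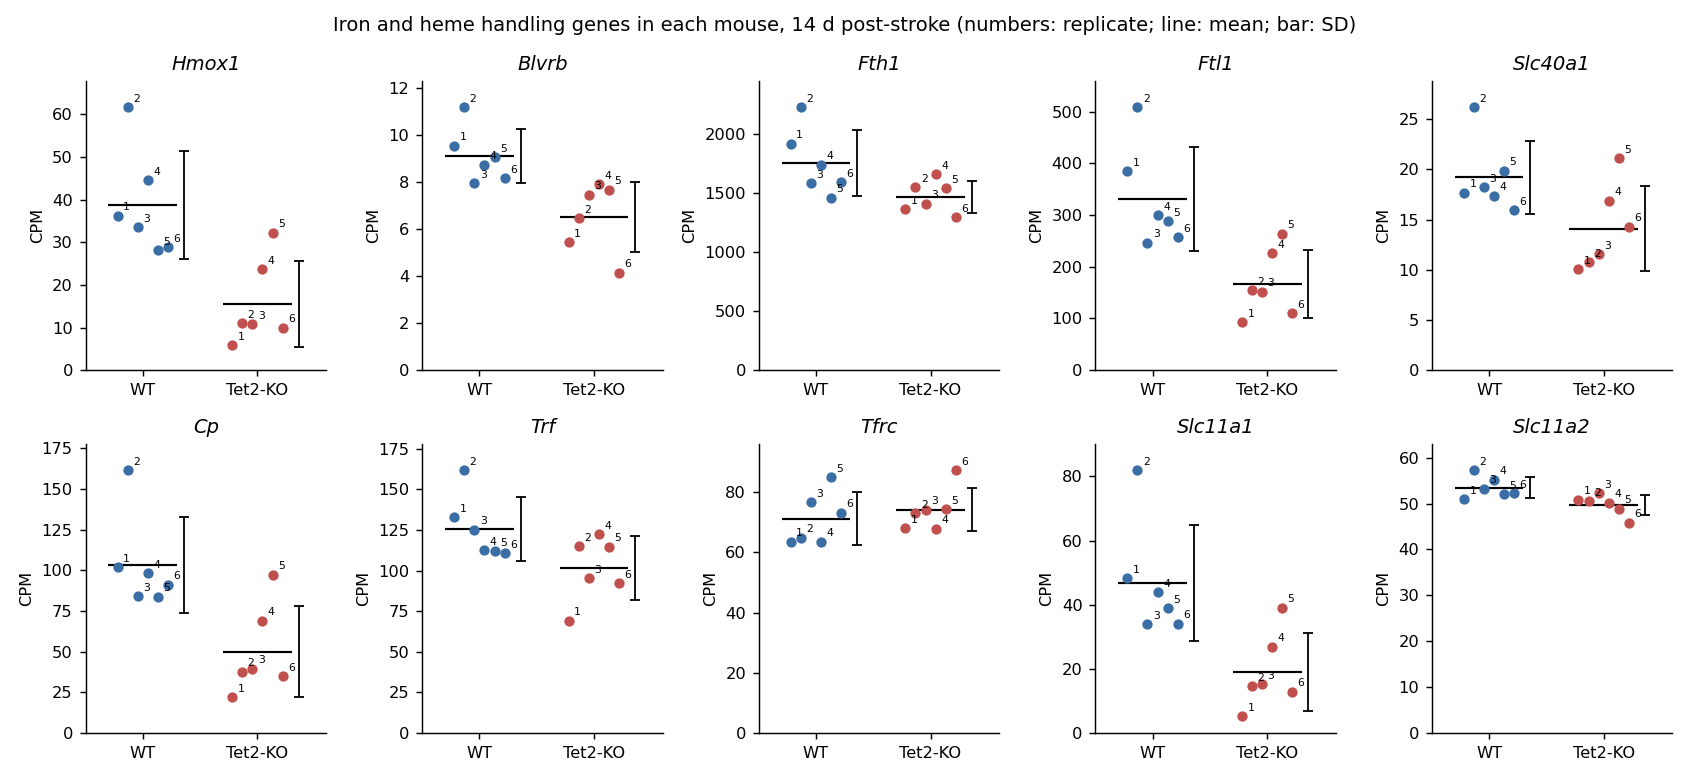
Level of each of the 10 genes in CPM (vertical axes, from 0) in the 6 WT and the 6 *Tet2*-KO mice. Each point is a mouse with its replicate number, the line is the mean and the bar the SD. In *Hmox1*, *Ftl1*, *Cp* and *Slc11a1* all *Tet2*-KO mice but replicate 5 lie below every WT mouse.

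Both genes of heme breakdown were lower in the *Tet2*-KO group. *Hmox1* (ENSMUSG00000005413, chr8:75093621-75100589), the inducible heme oxygenase, was between 28.2 and 61.6 CPM in the WT group with a median of 34.9, and between 5.89 and 32.2 CPM in the *Tet2*-KO group with a median of 10.9. The groups overlapped through *Tet2*-KO replicate 5, the highest of its group at 32.2 CPM, and the other 5 *Tet2*-KO mice lay under every WT mouse. The means were 38.8 ± 12.6 and 15.6 ± 10.1 CPM (SD, n = 6 per group), 2.5-fold lower, with a log2 fold change of -1.32 (standard error, SE, 0.39, edgeR adjusted p = 0.125). Without *Tet2*-KO replicate 5 the log2 fold change was -1.65 (edgeR adjusted p = 0.0207), and without WT replicate 2 it was -1.14 (edgeR adjusted p = 0.261).

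*Blvrb* (ENSMUSG00000040466, chr7:27447978-27466144), a biliverdin reductase that also reduces flavins, was the least counted of the 10 genes, with 54 to 156 counts per mouse. It was between 7.97 and 11.2 CPM in the WT group, with a median of 8.91, and between 4.15 and 7.92 CPM in the *Tet2*-KO group, with a median of 6.96. The groups were apart by a narrow margin, from 7.92 CPM in the highest *Tet2*-KO mouse to 7.97 CPM in the lowest WT mouse. The log2 fold change was -0.48 (SE 0.14, edgeR adjusted p = 0.121), which is 1.39-fold lower. *Tet2*-KO replicate 5, which was level with WT mice in *Hmox1*, was at 7.69 CPM here, and leaving it out gave -0.52 (edgeR adjusted p = 0.0368), while leaving out WT replicate 2 gave -0.41 (edgeR adjusted p = 0.239).

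The ferritin chains differed in how much lower they were. *Fth1* (ENSMUSG00000024661, chr19:9980598-9985098), the heavy chain with the ferroxidase activity, was between 1460 and 2226 CPM in the WT group, with a median of 1666, and between 1294 and 1658 CPM in the *Tet2*-KO group, with a median of 1475. Of the *Tet2*-KO mice 3 lay under every WT mouse and all 6 were below the WT mean. Its log2 fold change was -0.25 (SE 0.10, edgeR adjusted p = 0.154), with -0.27 when *Tet2*-KO replicate 5 was left out and -0.17 when WT replicate 2 was (edgeR adjusted p = 0.103 and 0.308). *Ftl1* (ENSMUSG00000050708, chr7:45457944-45459884), the light chain that serves the mineral core, was between 246 and 508 CPM in the WT group, with a median of 294, and between 92.9 and 264 CPM in the *Tet2*-KO group, with a median of 153. All *Tet2*-KO mice but replicate 5, at 264 CPM, lay below every WT mouse. The means were 331 ± 99.8 and 167 ± 66.4 CPM (SD, n = 6 per group), 1.99-fold lower, with a log2 fold change of -0.99 (SE 0.28, edgeR adjusted p = 0.123). The log2 fold change was -1.17 without *Tet2*-KO replicate 5 (edgeR adjusted p = 0.0262) but -0.83 without WT replicate 2 (edgeR adjusted p = 0.251).

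The ratio of *Fth1* to *Ftl1* counts within a mouse needs no scaling between libraries. It was between 4.38 and 6.42 with WT BM and between 5.84 and 14.7 with *Tet2*-KO BM, with means of 5.47 ± 0.789 and 9.82 ± 3.15 (SD, n = 6 per group). All *Tet2*-KO mice but replicate 5 were above every WT mouse, and *Tet2*-KO replicate 1 had the highest ratio. The difference in log2 ratio was 0.79 (exact two-sided permutation test, n = 6 per group, p = 0.00649, adjusted over 3 ratios p = 0.00974, where 0.00216 is the smallest p of this design). With any single mouse left out the log2 difference was between 0.66 and 0.93 and the exact permutation p between 0.00433 and 0.013. For each ratio the adjustment covers 3 ratios and not all tested genes. Their genes were chosen with earlier results of these data known. The ratio is also not independent of *Ftl1*, whose edgeR p was 0.00495 unadjusted and 0.123 adjusted over all tested genes.

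*Ftl1* has near-identical copies, so its counts depend on how reads were assigned. The authors counted reads that mapped to a single place. *Ftl1-ps1*, a pseudogene by its symbol that the annotation lists as protein coding, held 94 counts over the WT mice and 41 over the *Tet2*-KO mice, and *Ftl1-ps2*, listed as a processed pseudogene, 2 and 4, against 27003 and 16133 for *Ftl1*. *Ftl1-ps1* averaged 1.16 ± 0.286 and 0.425 ± 0.151 CPM (SD, n = 6 per group), or -1.43 in log2 fold change (edgeR adjusted p = 0.0816), and its groups did not overlap. Whether these counts came from *Ftl1-ps1* itself or from *Ftl1* transcripts was not tested. Exons of *Ftl1* also overlap those of Gm10252 on the other strand and Gm22133 on the same strand, and the strand setting of the counting is not given in the sources used here.

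Of the genes of export and oxidation, *Slc40a1* (ENSMUSG00000025993, chr1:45908068-45926523), which encodes ferroportin, was between 15.9 and 26.2 CPM in the WT group, with a median of 18.0, and between 10.04 and 21.1 CPM in the *Tet2*-KO group, with a median of 12.9. Of the *Tet2*-KO mice 4 lay under every WT mouse, while replicate 5 was above the WT mean. Its log2 fold change was -0.45 (SE 0.18, edgeR adjusted p = 0.172). Without *Tet2*-KO replicate 5 it was -0.60 (edgeR adjusted p = 0.0272), and without WT replicate 2 it was -0.34 (edgeR adjusted p = 0.36).

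*Cp* (ENSMUSG00000003617, chr3:19957054-20009145) encodes ceruloplasmin, the copper ferroxidase that works with ferroportin and in brain is known from astrocytes. It was between 83.8 and 162 CPM in the WT group, with a median of 94.7, and between 22.1 and 97.2 CPM in the *Tet2*-KO group, with a median of 38.6. The highest value of the WT group came from replicate 2 and that of the *Tet2*-KO group from replicate 5. The means were 103 ± 29.4 and 50.0 ± 27.8 CPM (SD, n = 6 per group), 2.07-fold lower, with a log2 fold change of -1.05 (SE 0.34, edgeR adjusted p = 0.133). Without *Tet2*-KO replicate 5 it was -1.34 (edgeR adjusted p = 0.0215), but without WT replicate 2 it was -0.88 (edgeR adjusted p = 0.282). Exons of *Cp* overlap those of *Hps3* on the other strand.

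The carrier and its receptor gave different values. *Trf* (ENSMUSG00000032554, chr9:103204001-103230444), transferrin, was between 111 and 162 CPM in the WT group, with a median of 119, and between 69.1 and 123 CPM in the *Tet2*-KO group, with a median of 105. Of the *Tet2*-KO mice 3 lay under every WT mouse, and it was lower by a log2 fold change of -0.31 (SE 0.14, edgeR adjusted p = 0.205). Leaving out *Tet2*-KO replicate 5 gave -0.35 and leaving out WT replicate 2 gave -0.22 (edgeR adjusted p = 0.151 and 0.425). *Tfrc* (ENSMUSG00000022797, chr16:32608920-32632794), the transferrin receptor, was between 63.6 and 85.1 CPM in the WT group, with a median of 69.0, and between 67.9 and 87.4 CPM in the *Tet2*-KO group, with a median of 73.6. The groups overlapped almost throughout, since 1 *Tet2*-KO mouse, replicate 6, was above every WT mouse and none was below. The log2 fold change was 0.06 (SE 0.08, edgeR adjusted p = 0.7), and with any single mouse left out it was between 0.01 and 0.12.

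The ratio of *Slc40a1* to *Tfrc* counts sets the exporter against the uptake receptor. It was between 0.218 and 0.404 with WT BM and between 0.147 and 0.284 with *Tet2*-KO BM, with means of 0.274 ± 0.0678 and 0.191 ± 0.0595 (SD, n = 6 per group), and 4 of 6 *Tet2*-KO mice lay under every WT mouse. The difference in log2 ratio was -0.54 (exact two-sided permutation test, n = 6 per group, p = 0.039, adjusted over 3 ratios p = 0.039). It passed 0.05 with only 2 of the 12 mice left out in turn, *Tet2*-KO replicates 4 and 5, and the exact permutation p was 0.0779 without WT replicate 2.

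The ratio of *Hmox1* to *Hmox2*, the heme oxygenase that is made constantly, was between 0.628 and 1.35 with WT BM and between 0.144 and 0.724 with *Tet2*-KO BM. All *Tet2*-KO mice but replicate 5 were below every WT mouse. The means were 0.863 ± 0.267 and 0.370 ± 0.220 (SD, n = 6 per group), and the difference in log2 ratio was -1.38 (exact two-sided permutation test, n = 6 per group, p = 0.00649, adjusted over 3 ratios p = 0.00974). *Hmox2* alone averaged 44.8 ± 1.47 CPM (SD, n = 6) with WT BM and 41.3 ± 2.13 CPM with *Tet2*-KO BM, or -0.12 in log2 fold change (edgeR adjusted p = 0.161). Since *Hmox2* differed little, the ratio largely repeats the difference in *Hmox1* and is not a separate result. By edgeR, *Hmox1* had an unadjusted p of 0.00665 and an adjusted p of 0.125 over all tested genes. With any single mouse left out, the log2 difference of the ratio was between -1.61 and -1.15.

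**Figure D2:**
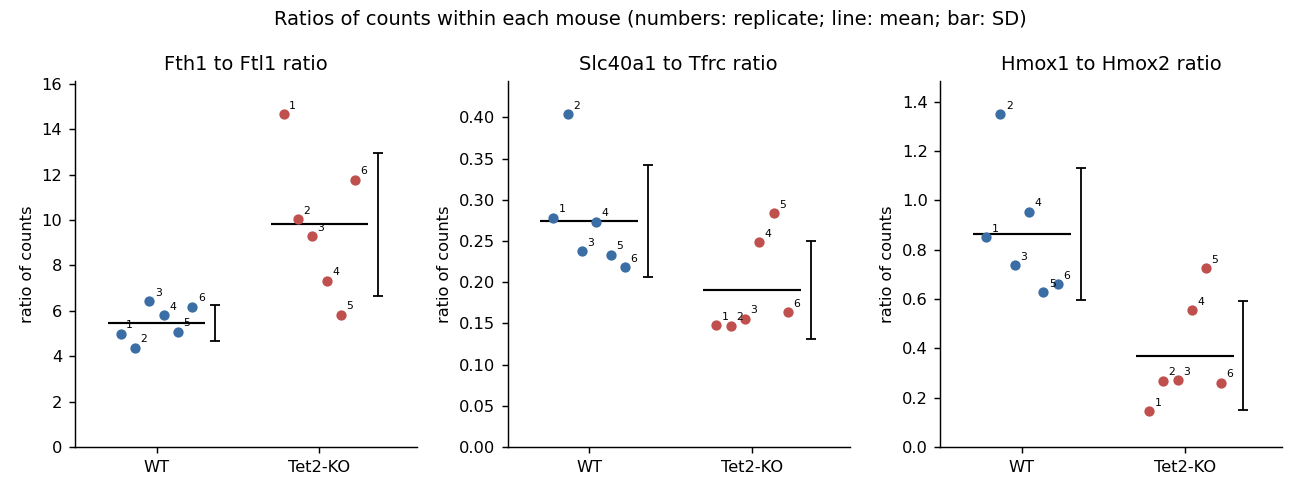
Ratio of counts (vertical axes, from 0, no unit) of *Fth1* to *Ftl1*, *Slc40a1* to *Tfrc* and *Hmox1* to *Hmox2* in the 6 WT and the 6 *Tet2*-KO mice. Each point is a mouse with its replicate number, the line is the mean and the bar the SD. The *Tet2*-KO mice reach 14.7 in the first ratio and as little as 0.144 in the last, and replicate 5 lies among the WT mice in all 3 ratios.

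The metal transporters *Slc11a1* and *Slc11a2* are closely related proteins, and their log2 fold changes were far apart. *Slc11a1* (ENSMUSG00000026177, chr1:74375195-74386062), which moves iron and manganese out of the phagosome of macrophages and neutrophils, was between 33.8 and 82.0 CPM in the WT group, with a median of 41.4, and between 5.20 and 39.1 CPM in the *Tet2*-KO group, with a median of 14.9. All *Tet2*-KO mice but replicate 5, at 39.1 CPM, were below every WT mouse. The means were 46.8 ± 18.1 and 19.0 ± 12.1 CPM (SD, n = 6 per group), 2.48-fold lower, with a log2 fold change of -1.31 (SE 0.42, edgeR adjusted p = 0.132). It was -1.64 without *Tet2*-KO replicate 5 (edgeR adjusted p = 0.0277) but -1.08 without WT replicate 2 (edgeR adjusted p = 0.281). *Slc11a2* (ENSMUSG00000023030, chr15:100387898-100425072), the transporter of ferrous iron in endosomes and gut, was between 50.9 and 57.3 CPM in the WT group, with a median of 52.7, and between 45.9 and 52.2 CPM in the *Tet2*-KO group, with a median of 50.4. The spread within each group was small, and 5 of 6 *Tet2*-KO mice lay under every WT mouse, although the log2 fold change was only -0.10 (SE 0.05, edgeR adjusted p = 0.197). Leaving out *Tet2*-KO replicate 5 gave -0.10, and leaving out WT replicate 2 gave -0.08 (edgeR adjusted p = 0.217 and 0.4). Exons of *Slc11a2* overlap those of Gm5475 on the other strand, and those of *Trf* overlap Gm20425 on the same strand.

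Levels of different genes were compared as CPM per kb of the longest protein-coding transcript. In the WT group *Fth1* stood first at 1173 ± 188 CPM per kb (SD, n = 6), followed by *Ftl1* at 342 ± 103 and *Trf* at 48.9 ± 7.69, and the ranges of these neighbours did not overlap. *Hmox1* at 24.7 ± 8.06, *Cp* at 22.7 ± 6.45, *Slc11a1* at 20.2 ± 7.83 and *Tfrc* at 14.6 ± 1.79 CPM per kb followed, each with a range that overlapped that of the next. *Slc11a2* at 12.1 ± 0.535 lay below the range of *Tfrc*, and *Blvrb* at 8.87 ± 1.14 and *Slc40a1* at 5.70 ± 1.08 came last with ranges that touched each other. In the *Tet2*-KO group *Tfrc* at 15.2 ± 1.45 and *Slc11a2* at 11.3 ± 0.498 CPM per kb came next after *Trf* by the mean, ahead of *Cp* at 10.95 ± 6.09, *Hmox1* at 9.94 ± 6.44 and *Slc11a1* at 8.19 ± 5.21. Per length of the merged exons of all transcripts, *Cp* came after *Slc11a1* and *Tfrc* in the WT group and *Hmox1* came ahead of *Slc11a2* and *Cp* in the *Tet2*-KO group, while the first 3 and last 2 places were the same in both. Together, *Fth1* and *Ftl1* made up 81.6% ± 1.06 of the CPM of the 10 genes in WT mice and 83.3% ± 1.84 in *Tet2*-KO mice (SD, n = 6 per group).

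**Figure D3:**
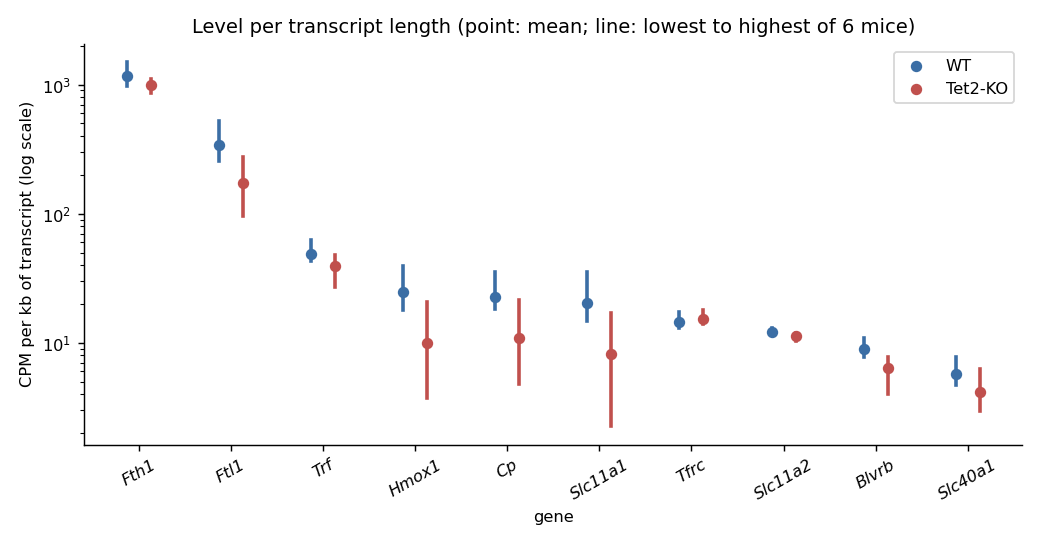
Level of the 10 genes in CPM per kb of the longest protein-coding transcript (vertical axis, log scale). Points are the means of 6 mice and lines run from the lowest to the highest mouse, in blue for WT and red for *Tet2*-KO. *Fth1*, *Ftl1* and *Trf* lead in both groups, and the *Tet2*-KO ranges of *Hmox1*, *Cp* and *Slc11a1* are the widest on this scale.

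The wider pathways were described with 5 lists of 60 genes in all, of which 54 could be tested. Of these 54 genes 17 were lower and 1 was higher at an unadjusted p below 0.05. The lower ones were 31.5%, against 12.2% of all tested genes, while 10.8% of all tested genes were higher. None of the 54 passed the adjusted threshold in edgeR. The DESeq2 Wald test called 6 of them lower, against 3.71% of all genes with an adjusted p, and limma-voom 9, against 7.01%, and neither called a higher one. The median log2 fold change over the 54 genes was -0.06.

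Of 19 tested genes of iron transport and storage, 6 were lower and 1, *Slc22a17*, was higher at an unadjusted p below 0.05. Of all tested genes 12.2% were lower and 10.8% higher at that level. The median log2 fold change over the list was -0.08. *Slc39a14*, an importer of iron that is not bound to transferrin, averaged 63.4 ± 9.93 CPM (SD, n = 6) with WT BM and 46.8 ± 2.61 CPM with *Tet2*-KO BM, with no overlap between the groups. Its log2 fold change was -0.44 (SE 0.09, edgeR adjusted p = 0.104). *Scara5*, a receptor for ferritin, gave a log2 fold change of -1.07 (by edgeR the adjusted p was 0.123). The metalloreductases *Steap3* and *Steap4* had log2 fold changes of -1.07 and -2.09 (edgeR adjusted p = 0.14 and 0.131).

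Among 7 tested iron regulators 2 were lower at an unadjusted p below 0.05 and none was higher, beside 12.2% and 10.8% of all tested genes. In so small a list a count of 2 is not read as a difference from all genes. *Bmp6*, a signal that induces hepcidin, gave a log2 fold change of -0.41 (by edgeR the adjusted p was 0.176), and *Hfe*, which binds the transferrin receptor, one of -0.54 (edgeR adjusted p = 0.211). *Aco1*, which encodes one of the iron regulatory proteins, had a log2 fold change of -0.13 and *Erfe*, a hormone of red cell precursors, of 0.23, both with an unadjusted p above 0.05. Hepcidin itself, *Hamp*, held 2 counts over the 6 WT mice and 0 over the 6 *Tet2*-KO mice, too few to be tested.

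None of the 9 genes of heme synthesis had an unadjusted p below 0.05 in either direction, beside 12.2% lower and 10.8% higher of all tested genes. Their log2 fold changes were between -0.12 and 0.13, with a median of 0.03. *Alas1*, the first enzyme in most tissues, had a log2 fold change of -0.12 and *Alas2*, its counterpart in red cell precursors, of 0.13, *Alad*, the second enzyme, also of 0.13, and *Cpox*, a later one, of 0.08.

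In the list for heme scavenging, transport and breakdown 5 of 10 tested genes were lower at an unadjusted p below 0.05 and none was higher. The shares of all tested genes were 12.2% and 10.8%. *Hp*, haptoglobin, which binds free hemoglobin, averaged 3.76 ± 1.81 CPM (SD, n = 6) with WT BM and 1.12 ± 0.933 CPM with *Tet2*-KO BM, or -1.80 in log2 fold change (SE 0.45, edgeR adjusted p = 0.112). *Flvcr1*, named as a heme exporter, *Lrp1*, a receptor that takes up hemopexin with its heme, and *Blvra*, the main biliverdin reductase of adults, had log2 fold changes of -0.26, -0.29 and -0.24. The other gene was *Hmox2*.

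Of 9 regulators of *Hmox1* and targets of NRF2, 4 were lower at an unadjusted p below 0.05 and none was higher, beside 12.2% and 10.8% of all tested genes. *Slc7a11*, the cystine importer, averaged 222 ± 45.7 CPM (SD, n = 6) with WT BM and 119 ± 33.7 CPM with *Tet2*-KO BM, or -0.90 in log2 fold change (SE 0.19, edgeR adjusted p = 0.11). *Nfe2l2*, which encodes NRF2, an activator of *Hmox1*, gave a log2 fold change of -0.62 (by edgeR the adjusted p was 0.132), and *Bach1*, a repressor of *Hmox1*, one of -0.47 (edgeR adjusted p = 0.123). *Txnrd1*, a thioredoxin reductase, had a log2 fold change of -0.20. The other 5 genes of the list had log2 fold changes between -0.03 and 0.08.

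**Figure D4:**
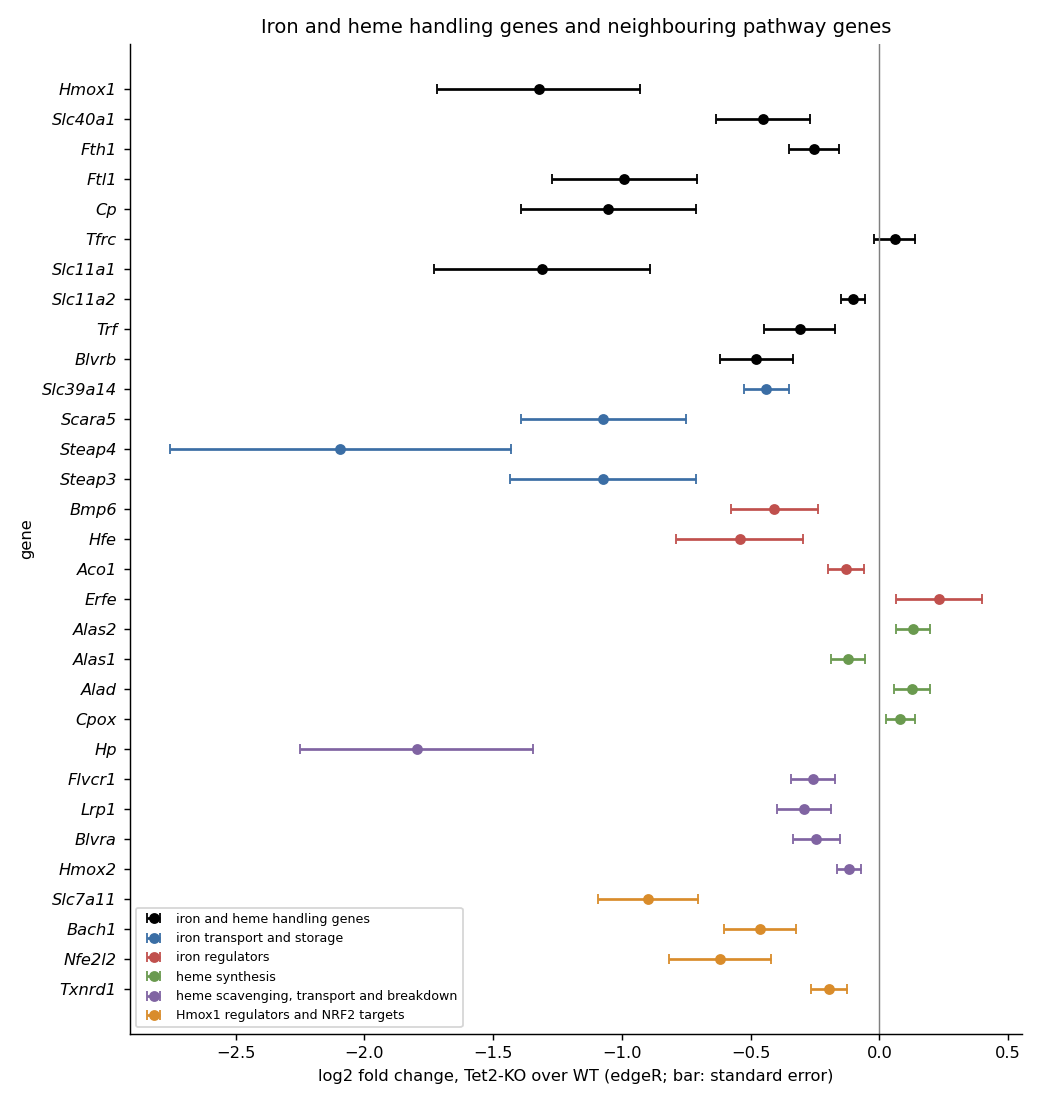
Log2 fold change of *Tet2*-KO over WT (horizontal axis) with its standard error, from edgeR, for the 10 genes in black and for the named genes of the 5 pathway lists in colours. The values run from -2.09 in *Steap4* to 0.23 in *Erfe*, and heme synthesis genes lie between -0.12 and 0.13.

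Markers of cell types were read in the same mice, and some lists differed between the groups more than others. Of all the marker genes, only *S100a8* and *S100a9* passed the adjusted threshold in edgeR, which 0.0246% of all tested genes passed. At an unadjusted p below 0.05, 12.2% of all tested genes were lower and 10.8% higher. In bulk tissue, fewer cells of a type and less RNA per cell cannot be told apart. Of 8 activated phagocyte markers all were lower, 7 of them at an unadjusted p below 0.05, with a median log2 fold change of -1.70. None of the 8 passed the adjusted threshold in edgeR. DESeq2, which gave *Spp1* no p-value, called 1 of them lower, against 3.71% of all genes with an adjusted p. Limma-voom called all 8 lower, against 7.01% of all tested genes. Their summed level was between 1069 and 2782 CPM in the WT group and between 66.2 and 1568 CPM in the *Tet2*-KO group. *Tet2*-KO replicate 5, the mouse with the highest *Hmox1*, *Ftl1*, *Cp*, *Slc11a1* and *Slc40a1* of its group, had the highest sum at 1568 CPM, and *Tet2*-KO replicate 1, the lowest in 6 of the 10 genes, had the lowest. Border macrophage markers were lower in 5 of 6, 4 of them at an unadjusted p below 0.05, with sums of 42.9 to 77.5 and 10.5 to 53.3 CPM. All 6 fibroblast markers were lower at an unadjusted p below 0.05, with sums of 581 to 1313 and 147 to 735 CPM. In the border macrophage and fibroblast lists, too, *Tet2*-KO replicate 5 had the highest sum of its group and replicate 1 the lowest.

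Microglia markers gave a median log2 fold change of -0.15, with none of 8 at an unadjusted p below 0.05 and sums of 603 to 1082 CPM in WT and 309 to 800 CPM in *Tet2*-KO mice. Both neutrophil markers that could be tested, *S100a8* and *S100a9*, passed the adjusted threshold of edgeR as lower, and both still did with 3 of the 12 mice left out in turn, neither with 8 and neither with the replicate block. Their list summed to 4.76 to 12.4 and 1.41 to 2.75 CPM, and among its untested genes *Mpo* held 25 counts over the WT and 29 over the *Tet2*-KO mice, *Retnlg* 46 and 47, and *Ly6g* 2 and 0. Choroid plexus markers were lower at an unadjusted p below 0.05 in 3 of 7, with sums of 509 to 671 and 409 to 704 CPM. At that level 12.2% of all tested genes were lower and 10.8% were higher. Of 8 markers of oligodendrocytes, a known source of *Trf*, none had an unadjusted p below 0.05, and their median log2 fold change was -0.01, with sums of 4915 to 6427 and 4568 to 6363 CPM. Astrocyte markers were lower in 3 of 6 and higher in 3, with a median log2 fold change of -0.05. Only *Slc1a2*, as higher, had an unadjusted p below 0.05. Their sums were 5346 to 5533 and 5301 to 5998 CPM, mostly from *Slc1a2*, which averaged 4063 and 4459 CPM. Endothelial markers summed to 244 to 296 and 228 to 283 CPM, with 2 of 6 lower at an unadjusted p below 0.05. All 7 neuron markers, the defining cells of the labelled tissue, were present and higher at an unadjusted p below 0.05, with a median log2 fold change of 0.25 and sums of 3661 to 5241 and 4798 to 6334 CPM. Red blood cell markers, the carriers of most heme, were higher in 3 of 4 tested genes at an unadjusted p below 0.05, with a median of 0.55 and sums of 9.68 to 19.1 and 14 to 28.9 CPM. No marker of these lists was at 0 in all 12 mice. The part of these cells in the levels of the iron and heme handling genes was not tested.

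**Figure D5:**
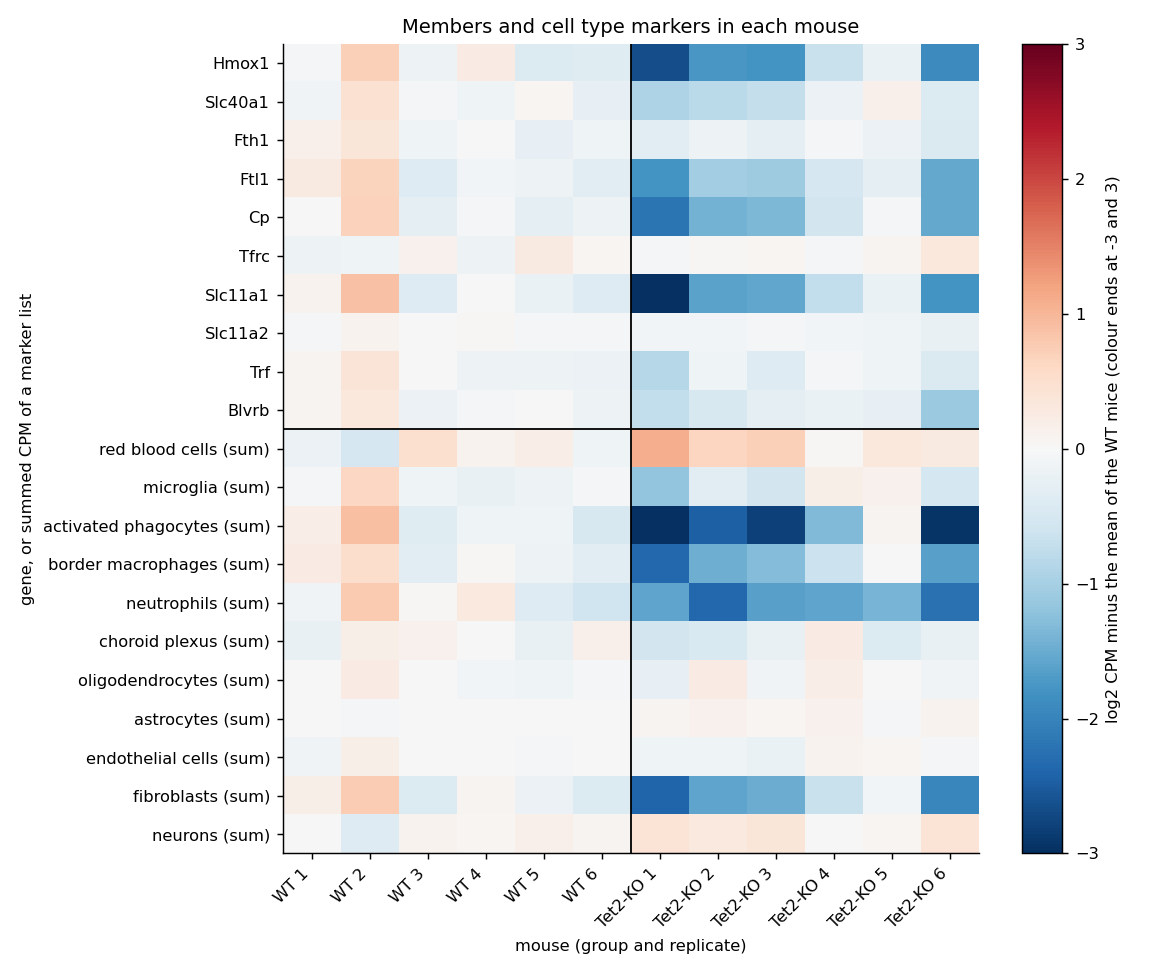
Log2 CPM minus the mean of the WT mice (colour, ending at -3 and 3) in each of the 12 mice (columns), for the 10 genes (upper rows) and for the summed CPM of each marker list (lower rows). *Hmox1*, *Ftl1*, *Cp* and *Slc11a1* are palest among the *Tet2*-KO mice in replicate 5, as are the activated phagocyte, border macrophage and fibroblast sums.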

How the data were processed

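The deposited files hold raw counts of read pairs per gene for the brains of 12 mice. Per the labels and the study's methods, the authors depleted ribosomal RNA, trimmed reads with Trimmomatic 0.36, aligned them to mm10 with STAR 2.5.2b and took exon counts of uniquely mapping reads from featureCounts (Subread 1.5.2). From these, CPM, log2 fold changes and ratios were computed in R 4.3.3 and Python. Genes were kept by filterByExpr, scaled by TMM and tested with edgeR 4.0.16 (robust quasi-likelihood fit, no covariates). DESeq2 1.42.0 and limma 3.58.1 were alternatives, and each SE was obtained by dividing a log2 fold change by the root of its F statistic. Ratios were compared on the log2 scale by exact permutation of mice. The tests were tested on simulated data. Replicates are mice, as the titles number them, and no pair of libraries of a group agreed within sampling noise. The members and gene lists were chosen with earlier results of these data known. Named are all members, in each pathway list up to 4 genes with the smallest edgeR p, any whose groups do not overlap, *Hmox2*, ferritin pseudogenes and *Tet2*. *Slc22a17*, *Hamp*, *S100a8*, *S100a9*, *Mpo*, *Retnlg*, *Ly6g* and *Slc1a2* were named after their values were seen.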

Additional observations from a re-analysis of the deposited data

Results flagged for a closer look

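In each group of 6 mice the highest and the lowest value of every member, of *Hmox2*, of *Tet2* and of the 3 ratios was compared with its nearest neighbour by Dixon's criterion (critical value 0.625), 30 groups in all, of which chance flags about 1 in 20. *Cp* in WT replicate 2 was at 162 CPM, while the other WT mice were between 83.8 and 102 CPM. *Tfrc* in *Tet2*-KO replicate 6 was at 87.4 CPM, with the rest of its group between 67.9 and 74.4 CPM. *Tet2* in WT replicate 5 was at 147 CPM, above the 126 to 132 CPM of the other WT mice.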

How the results depend on the processing

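The direction of all 10 genes was the same in each of 100 values under other tests, scalings, filters and covariates and in each of 120 with a mouse left out. The number of genes past the adjusted threshold, 5 in edgeR, varied with the test and with the mice. It was 917 in DESeq2, 2013 in limma-voom, 44 without a filter, 0 with at least 10 counts in every library, 0 with a replicate block and 0 to 2257 with a mouse left out, the highest without *Tet2*-KO replicate 5. Because the DESeq2 count was seen to depend on its settings, 3 more were run after seeing the data. It was 898 with its filter tuned to 0.05, 1489 on the genes kept by edgeR and 1464 with both, so the planned run is the second lowest of 4. Of the members, 0 passed in edgeR, and 9 had an unadjusted p below 0.05. The latter count was 7 without a filter and 6 to 9 with a mouse left out. The count past the adjusted threshold, also added after seeing the data, was 5 in DESeq2, 3 with its filter tuned to 0.05, 5 in both runs on the genes kept by edgeR, 6 in limma-voom and 0 to 6 with a mouse left out, where only *Tet2*-KO replicate 5 gave a value above 0. The 3 genes called with the tuned filter were *Blvrb*, *Ftl1* and *Hmox1*. Members whose groups did not overlap numbered 1, and 1 to 5 with a mouse left out. The 5 came without *Tet2*-KO replicate 5, where the share of all tested genes lower with no overlap was 4.76%, against 0.641% with all mice. The cause of these differences was not tested.

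Same-numbered mice correlated between -0.169 and 0.229 in their deviations from the group means, so the numbers were not taken as pairs. With the replicate block 8 members had an unadjusted p below 0.05, and an exact sign-flip test of same-numbered mice gave p = 0.0938 for the *Slc40a1* to *Tfrc* difference of -0.54 and p = 0.0625 for the *Hmox1* to *Hmox2* difference of -1.38. With a mouse left out, the first was between -0.67 and -0.42. Upper quartile scaling moved the median of all genes from 0.01 to 0.04 and the split at an unadjusted p below 0.05 from 2477 lower and 2201 higher to 2129 and 3009. *Blvrb* had the fewest counts of the members, 54 to 156 per mouse.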
